A study of Brassica napus with 27 samples.

Results

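The 5 genes described here belong to the glucosinolate and myrosinase system of oilseed rape (Brassica napus). They are MyAP1 (LOC106348442), Nit2 (LOC106437374), CYP83B1-5 (LOC106372082), CYP83A1-5 (LOC106430121) and CYP79F1 (LOC106367453), taken by identifier from the 119532 gene entries of the count table, and their names come from the RefSeq annotation of assembly Da-Ae, given as a table. All 5 passed the filter on low counts. RNA was sequenced from leaves of the cultivar Westar in 9 groups of 3 libraries. The bnafah plants, called the double line here, carry CRISPR/Cas9 mutations in BnaA06FAH and BnaC05FAH. The bnaa06fah plants, called the single line, carry a mutation in BnaA06FAH alone. Both lines are described as free of the transgene and are set against wild-type plants grown in the same way. Plants of all 3 genotypes grew for 5 days on medium and 2 weeks in soil in long days. They were sampled in long days (LD, also labelled SD0), or 1 day (SD1) or 2 days (SD2) after transfer to short days. The labels give 16 h of light and 8 h of dark for both day lengths, so the length of the short day cannot be taken from them. The sample descriptions carry 1 code for each mutant genotype, A52_4 for bnafah and A17_10 for bnaa06fah, so each may stand for 1 line. Whether replicates were separate plants is not said, so p-values measure the spread between these libraries, which may in part be technical. The mutated FAH genes themselves were not analysed here.

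Glucosinolates are sulfur-rich compounds of the cabbage family, made from amino acids. In Arabidopsis, CYP79 enzymes turn an amino acid into an aldoxime, and CYP83 enzymes take the aldoxime into the core pathway. CYP79F1 acts on chain-elongated methionine, CYP83A1 serves mainly the aliphatic branch and CYP83B1 mainly the indolic branch. Myrosinase is the thioglucosidase that cleaves glucosinolates when tissue is damaged, and myrosinase-associated proteins were found bound to it in extracts of oilseed rape. Specifier proteins turn the breakdown toward nitriles, and nitrilases convert nitriles to acids.

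Library totals ran from 49700646 to 58862542 counts, so counting error matters mainly for CYP79F1 among the 5 genes. Along the first principal component of log2 expression (36.1% of the variance) the 9 single-line libraries lay at 114 to 136.5, and the 18 others at -90 to -43.6. Along the second component (17.1%) the double line's SD2 replicates 1 and 3 were at -117 and -123.5, whereas its replicate 2 was at 5.43, among libraries of earlier stages. Why it stands apart was not tested. The main results that rest on that group are given with and without replicate 2. None of the gene symbols listed beforehand as mesophyll, guard cell or myrosin cell markers was found among the named genes, so the leaf label could not be checked by them. The myrosinase gene Myr2.Bn1, described further below, is named but was not on that marker list. None of the 4 named genes listed beforehand as flower and seed markers, which are oleosin and storage protein genes, passed the filter. The highest count of any of them in any library was 7. The phloem sucrose transporter gene SUT2-1 had 2.18 to 22.7 CPM (counts scaled by library size) in the double line at SD2 and 43.4 to 73.7 CPM in wild type at SD2, and the 4 xylem cellulose synthase genes summed to 7.73 to 15.7 CPM and 4.1 to 12.6 CPM in the same groups. Whether the groups differed in tissue make-up, and what part that would have in the results below, was not tested. In whole leaves, fewer cells of a type and less RNA per cell cannot be told apart.

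At SD2, MyAP1 and Nit2 were higher in the double line than in wild type. MyAP1 was also higher than in the single line, and MyAP1 and CYP83B1-5 were higher in the double line at SD2 than in the double line in LD. CYP83A1-5 and CYP79F1 were not called in any comparison by edgeR. Each gene was tested in 24 comparisons of groups with edgeR's quasi-likelihood test, fitted on 72039 genes and all 27 libraries, and called where the Benjamini-Hochberg adjusted p over those genes was under 0.05. Of these 120 tests 5 were called, all of them higher, in 3 comparisons. In the other 21 comparisons edgeR called none of the 5 genes. There, of the tests of 5 genes in 21 comparisons, 22 had an unadjusted edgeR p under 0.05, 11 of them of CYP83B1-5, against 12.2% of the tests of all genes. DESeq2 called 16, of which 9 were of CYP79F1, against 2.99% of the tests of all genes with a count. That last share takes in low-count genes outside the edgeR filter, which all 5 genes passed, so it is not a like background. These comparisons share libraries.

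MyAP1 encodes a myrosinase-associated protein of the GDSL lipase-like family. In the double line, MyAP1 had 39.4, 52.8 and 74.9 CPM in LD, 90.2, 235 and 164 CPM at SD1, and 2206.9, 400 and 2510.4 CPM at SD2, in the order of replicates 1, 2 and 3. In the single line, it had 8.27, 10.4 and 56.7 CPM in LD, 185, 234 and 46.3 CPM at SD1, and 232, 33.6 and 18.5 CPM at SD2. In wild type, it had 83.4, 82.9 and 196 CPM in LD, 18.1, 14.1 and 129 CPM at SD1, and 39.8, 176 and 198 CPM at SD2. All 3 double-line libraries at SD2 lay above each of the other 24 libraries, with replicate 2 well below replicates 1 and 3. Replicates varied widely in most groups, with a ratio of highest to lowest of 12.5 in the single line at SD2 and 9.15 in wild type at SD1. Here and below, a lack of overlap between libraries of a pair of groups only describes the values. With 3 libraries per group it can also arise without a difference, and the share of all genes showing it was not counted.

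At SD2, MyAP1 averaged 1705.7 ± 1141.1 CPM in the double line, against 138 ± 85.6 CPM in wild type (SD, n = 3 libraries each). Its log2 fold change was 3.63 ± 1.07 (SE; edgeR adjusted p = 0.0447). In that comparison 2 of the 5 genes were called, MyAP1 and Nit2, against 6.8% of all genes tested in either direction and 3.49% called higher, and the median log2 fold change was 1.72 over the 5 genes (1.41 without replicate 2 of the double line) and -0.01 over all genes. The MyAP1 call was lost without any single one of the other 5 libraries of the pair of groups, replicates 1 and 3 of the double line and replicates 1 to 3 of wild type, with edgeR adjusted p-values up to 0.174. Without replicate 2 of the double line the log2 fold change was 4.10 ± 1.11 (edgeR adjusted p = 0.0145).

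Against the single line at SD2, which averaged 94.6 ± 119 CPM, MyAP1 in the double line had a log2 fold change of 4.17 ± 1.10 (edgeR adjusted p = 0.0223), and of 4.64 ± 1.13 without replicate 2 of the double line (edgeR adjusted p = 0.00758). It was the 1 gene of 5 called there, against 7.5% of all genes in either direction and 4.42% called higher. Leaving out replicate 1 or 3 of the double line, or replicate 2 or 3 of the single line, ended that call, with edgeR adjusted p-values up to 0.106.

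Within the double line, MyAP1 at SD2 stood 4.94 ± 1.14 log2 units above LD (edgeR adjusted p = 0.00614), and that call held without each of the 6 libraries in turn. Without replicate 2 at SD2 the difference from LD was 5.40 ± 1.17 (edgeR adjusted p = 0.00191). The double line's SD2 and SD1 libraries did not overlap either, but the log2 difference of 3.39 ± 1.06 missed the threshold (edgeR adjusted p = 0.0922). Without replicate 2 it was 3.85 ± 1.10 and was called (edgeR adjusted p = 0.0227), as it was by DESeq2 with all libraries (DESeq2 adjusted p = 0.0131). The change of MyAP1 in the double line between LD and SD2 exceeded that in wild type by 4.75 ± 1.44 log2 units, which also missed it (edgeR adjusted p = 0.0515), and by 5.21 ± 1.45 without replicate 2, which was called (edgeR adjusted p = 0.0204). In that test of the difference edgeR called 0 of the 5 genes, against 6.17% of all genes, while 3 had an unadjusted edgeR p under 0.05, against 23.2%. DESeq2 called 3 there, against 9.06% of all genes with a count, low-count genes outside the edgeR filter included. The excess over the single line's change was 3.02 log2 units (edgeR adjusted p = 0.385), and 3.49 without replicate 2 (edgeR adjusted p = 0.188).

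The single line did not show the SD2 level of the double line. Its MyAP1 libraries lay below every wild-type library in LD, at 8.27 to 56.7 CPM against 82.9 to 196 CPM, with a log2 fold change of -2.27 (edgeR adjusted p = 0.312). The double line in LD likewise lay below wild type without overlap, at 39.4 to 74.9 CPM, with a log2 fold change of -1.12 (edgeR adjusted p = 0.725). At SD1 the log2 fold changes against wild type were 1.60 in the double line and 1.53 in the single line (edgeR adjusted p = 0.964 and 0.642), and the libraries of each line overlapped with those of wild type. Without replicate 3 of wild type at SD1 these were 3.34 and 3.27, still not called (edgeR adjusted p = 0.502 and 0.195).

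**Figure D1:**
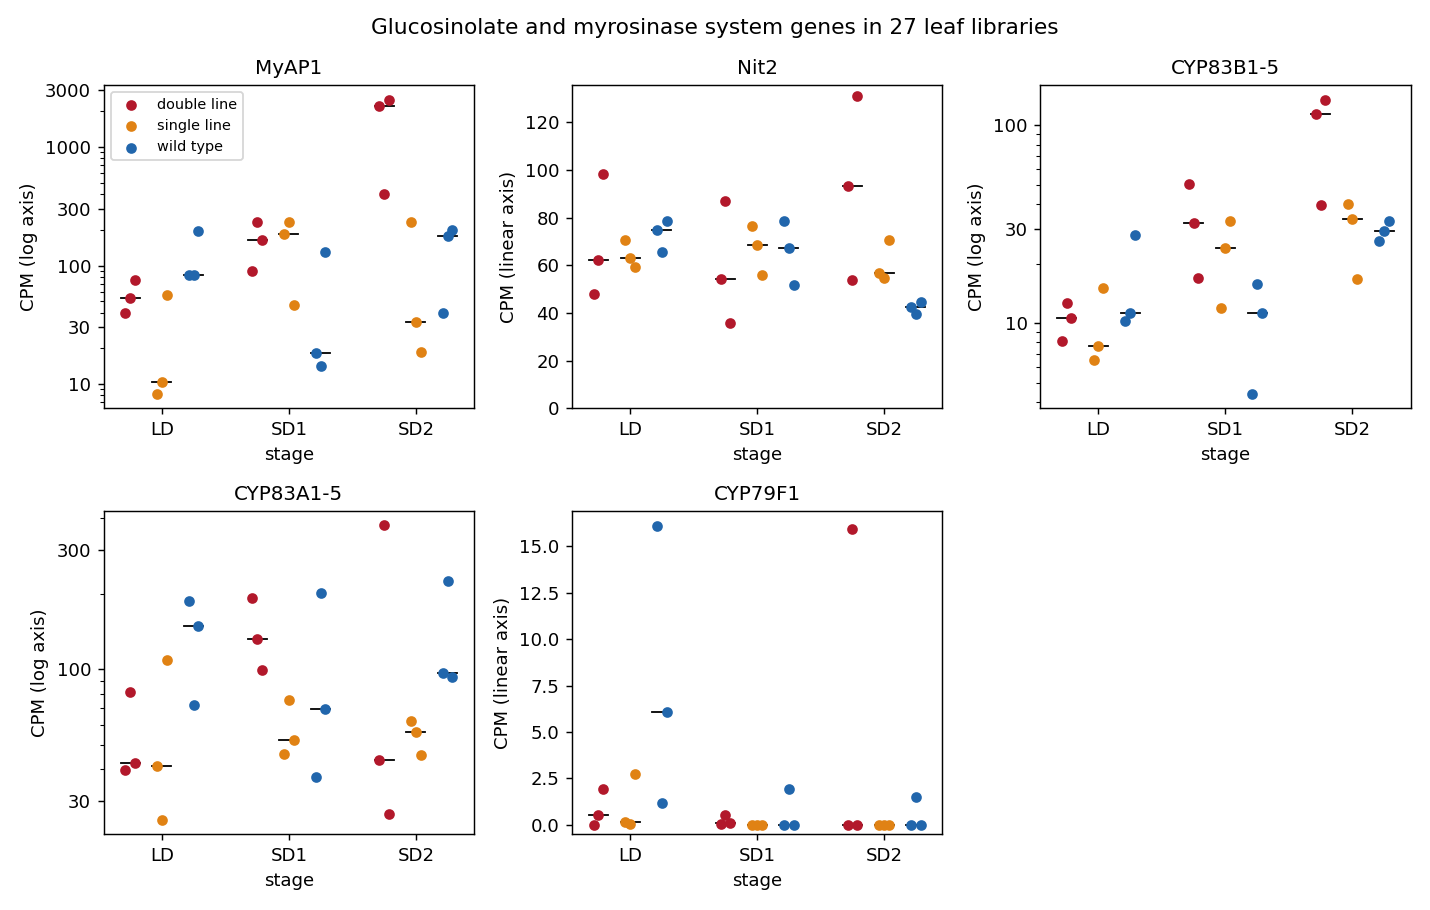
Scaled counts (CPM) of the 5 genes in each of the 27 libraries, by stage, with the double line, single line and wild type side by side; each point is a library, in the order of replicates, and the bar is the median of 3. MyAP1, CYP83B1-5 and CYP83A1-5 are on log axes, Nit2 and CYP79F1 on linear ones. MyAP1 in the double line at SD2 lies at 2206.9, 400 and 2510.4 CPM, above all other libraries.

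Nit2 is a nitrilase gene. Nitrilases of the Arabidopsis NIT1 group hydrolyse nitriles from glucosinolate breakdown and indole-3-acetonitrile. At SD2 the double line had 93.3, 54.1 and 131 CPM of Nit2, the single line had 57.0, 54.7 and 70.7 CPM, and wild type had 42.7, 39.6 and 44.6 CPM. Every library of both mutant lines thus lay above every wild-type library, and the double line's lowest library was below the single line's lowest. The means were 92.8 ± 38.4 CPM in the double line, against 42.3 ± 2.53 CPM in wild type (SD, n = 3 libraries each), a log2 fold change of 1.14 ± 0.30 (edgeR adjusted p = 0.0275). Without replicate 2 of the double line it was 1.41 ± 0.29 (edgeR adjusted p = 0.00222). The call was lost without any single one of the other 5 libraries of both groups, with edgeR adjusted p-values up to 0.169. The single line's log2 fold change against wild type was 0.52 (edgeR adjusted p = 0.574), and edgeR called 0 of the 5 genes in that comparison, against 2.56% of all genes; none had an unadjusted p under 0.05, and DESeq2 called CYP79F1. The double line's log2 fold change against the single line was 0.61 (edgeR adjusted p = 0.221), and 0.88 without replicate 2, which was called (edgeR adjusted p = 0.0408).

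The difference in Nit2 at SD2 went with a low wild-type level. Wild type had 74.8, 65.6 and 78.8 CPM in LD, 78.8, 67.3 and 52 CPM at SD1, and the 3 values of 39.6 to 44.6 CPM at SD2 lay below all of these. The wild-type change between LD and SD2 was -0.79 log2 units (edgeR adjusted p = 0.111), and edgeR called 0 of the 5 genes in that comparison, against 5.87% of all genes. The double line had 48.2, 62.3 and 98.2 CPM in LD and 54.3, 86.9 and 35.9 CPM at SD1, and its SD2 values overlapped with both (log2 change against LD 0.42, edgeR adjusted p = 0.372; against SD1 0.65, edgeR adjusted p = 0.239, and 0.93 without replicate 2, edgeR adjusted p = 0.035). The single line stayed between 54.7 and 76.4 CPM at all 3 stages. The change in the double line exceeded that in wild type by 1.21 ± 0.42 log2 units (edgeR adjusted p = 0.0865), and by 1.48 ± 0.39 without replicate 2 (edgeR adjusted p = 0.0146).

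**Figure D2:**
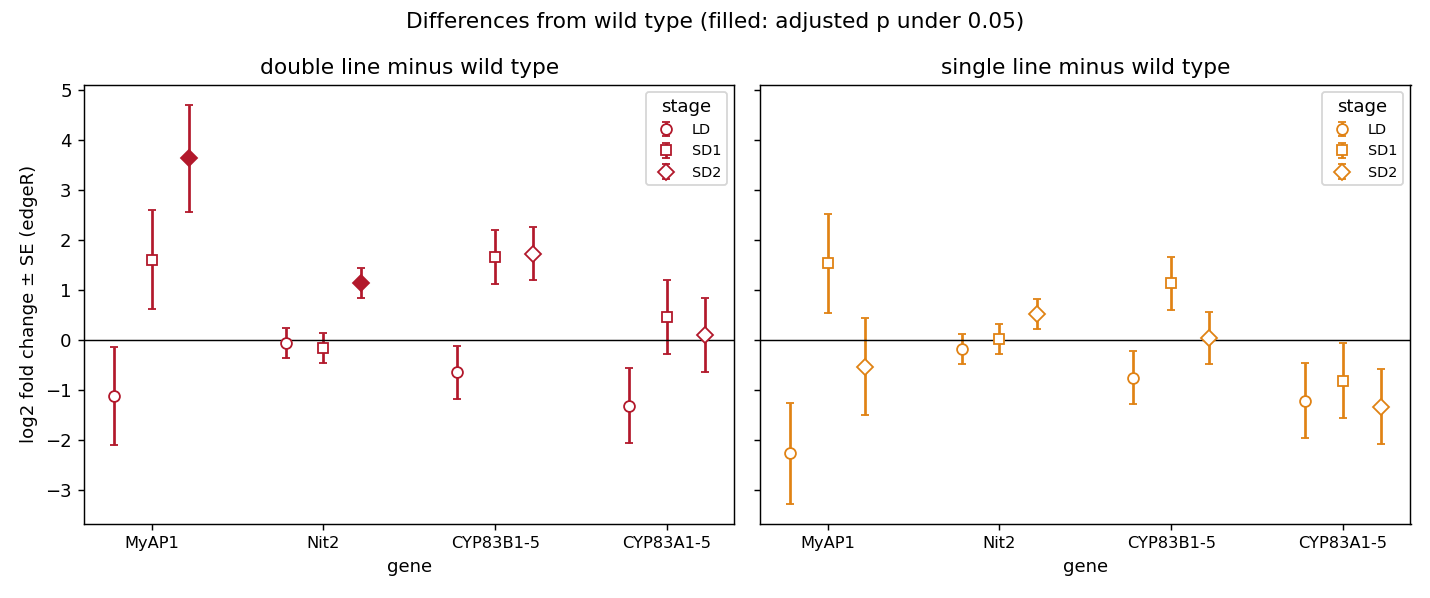
Log2 fold change ± SE (edgeR) of the 4 genes with counts in every library, double line minus wild type on the left and single line minus wild type on the right, at LD (circles), SD1 (squares) and SD2 (diamonds). Filled symbols mark an adjusted p under 0.05: MyAP1 (3.63) and Nit2 (1.14) in the double line at SD2.

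Among the synthesis genes, CYP83B1-5 was the 1 called by edgeR with all libraries. CYP83B1 serves mainly the indolic branch in Arabidopsis. In the double line, it had 8.10, 12.7 and 10.6 CPM in LD, 50.7, 32.1 and 16.9 CPM at SD1, and 114, 39.6 and 135 CPM at SD2. The SD1 and SD2 libraries all lay above the LD libraries. The SD2 mean was 96.3 ± 50.1 CPM, against 10.5 ± 2.32 CPM in LD (SD, n = 3 libraries each), a log2 fold change of 3.20 ± 0.57 (edgeR adjusted p = 0.00122). The call held without each of the 6 libraries in turn, and without replicate 2 at SD2 the log2 fold change was 3.57 ± 0.56 (edgeR adjusted p = 1.06e-04). With MyAP1, CYP83B1-5 made 2 of the 5 genes called in that comparison, against 15.7% of all genes in either direction and 8.87% called higher. The median log2 fold change there was 2.68 over the 5 genes and -0.03 over all genes. That median is the fitted value of CYP79F1, which rests on replicate 2, and without that library it was 0.69. The change between LD and SD1 in the double line was 1.67 log2 units (edgeR adjusted p = 0.174), and edgeR called 0 of the 5 genes, against 0.271% of all genes. DESeq2 called CYP83B1-5 there (DESeq2 adjusted p = 0.049).

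CYP83B1-5 was also higher at SD2 than in LD in the other genotypes without reaching the threshold. The single line had 40.1, 33.6 and 16.8 CPM at SD2, against 6.55, 7.67 and 15 CPM in LD, a log2 change of 1.63 (edgeR adjusted p = 0.0556). Its libraries at the 2 stages did not overlap. None of the 5 genes was called in that comparison by edgeR, against 9.97% of all genes. 1 had an unadjusted p under 0.05, and DESeq2 called CYP83B1-5 and CYP79F1. Wild type had 26.0, 29.1 and 32.9 CPM at SD2, against 10.3, 11.3 and 27.9 CPM in LD, a log2 change of 0.83 (edgeR adjusted p = 0.349). The change in the double line exceeded the wild-type one by 2.37 ± 0.75 log2 units (edgeR adjusted p = 0.0603), and by 2.74 ± 0.73 without replicate 2 (edgeR adjusted p = 0.0152). It exceeded the single line's by 1.57 log2 units (edgeR adjusted p = 0.399), and by 1.94 without replicate 2 (edgeR adjusted p = 0.146).

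Set against wild type at the same stage, the CYP83B1-5 libraries of the double line lay higher without overlap at SD1, at 16.9 to 50.7 CPM against 4.40 to 15.8 CPM, and at SD2, at 39.6 to 135 CPM against 26.0 to 32.9 CPM. The log2 fold changes were 1.66 at SD1 (edgeR adjusted p = 0.342) and 1.72 ± 0.53 at SD2 (edgeR adjusted p = 0.0547). Without replicate 2 of the double line the SD2 value was 2.09 ± 0.54 (edgeR adjusted p = 0.0104), without replicate 1 it was 1.61 (edgeR adjusted p = 0.173) and without replicate 3 it was 1.43 (edgeR adjusted p = 0.193). DESeq2, with all libraries, also called CYP83B1-5 in that comparison (DESeq2 adjusted p = 0.0124). The single line had 12, 24.1 and 32.7 CPM at SD1, which overlapped with wild type (log2 fold change 1.13, edgeR adjusted p = 0.420).

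CYP83A1-5 is named after the enzyme that serves mainly the aliphatic branch in Arabidopsis. It was not called in any of the 24 comparisons by edgeR or DESeq2, and 0 of its 24 edgeR tests had an unadjusted p under 0.05; the lowest edgeR adjusted p was 0.206. In the double line, it had 39.8, 81.5 and 42.4 CPM in LD, 192, 132 and 99.2 CPM at SD1, and 43.4, 375 and 26.5 CPM at SD2. In the single line, it had 41.3, 25.2 and 109 CPM in LD, 45.9, 75.7 and 52.2 CPM at SD1, and 62.5, 56.1 and 45.7 CPM at SD2. In wild type, it had 187, 71.8 and 149 CPM in LD, 37.2, 201 and 69.2 CPM at SD1, and 96.6, 226 and 93.2 CPM at SD2. The double line at SD2 held both the highest of the 27 values, in replicate 2, and the second lowest, in replicate 3.

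At SD2, CYP83A1-5 averaged 148 ± 197 CPM in the double line, against 139 ± 75.6 CPM in wild type (SD, n = 3 libraries each), a log2 fold change of 0.10 (edgeR adjusted p = 0.960). Replicates 1 and 3 of the double line, at 0.313 and 0.192 times the wild-type mean, lay below all 3 wild-type libraries, and replicate 2, at 2.71 times that mean, lay above them. Without replicate 2 the log2 fold change was -1.99 ± 0.67 and CYP83A1-5 was called lower (edgeR adjusted p = 0.0444). The direction of the CYP83A1-5 difference at SD2 thus turned with 1 library. The single line at SD2 lay below wild type without overlap, at 45.7 to 62.5 CPM against 93.2 to 226 CPM (log2 fold change -1.34, edgeR adjusted p = 0.568).

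Leaving out replicate 2 of the double line changed the picture for several of the genes at once. Against wild type at SD2, 4 of the 5 genes were then called, MyAP1, Nit2 and CYP83B1-5 higher and CYP83A1-5 lower, but the share over all genes tested was also larger, at 18%. Against the single line, 3 of the 5 were called, MyAP1, Nit2 and CYP83B1-5, against 16.2% of all genes. Against the double line at SD1, 4 of the 5 were called, against 14.6%. In the test of the LD-to-SD2 change against that of wild type, 3 of the 5 were called, against 14.4%. Against LD in the double line the 2 genes called were those called with replicate 2, against 25.9%, and 0 of the 5 were called for the change against that of the single line, against 3.57%. Replicate 2 had the lowest MyAP1, Nit2 and CYP83B1-5 levels of its group, and the highest CYP83A1-5 and CYP79F1 levels. For MyAP1, Nit2 and CYP83B1-5 it still lay above the wild-type mean at SD2, by 1.54, 0.36 and 0.44 log2 units.

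**Figure D3:**
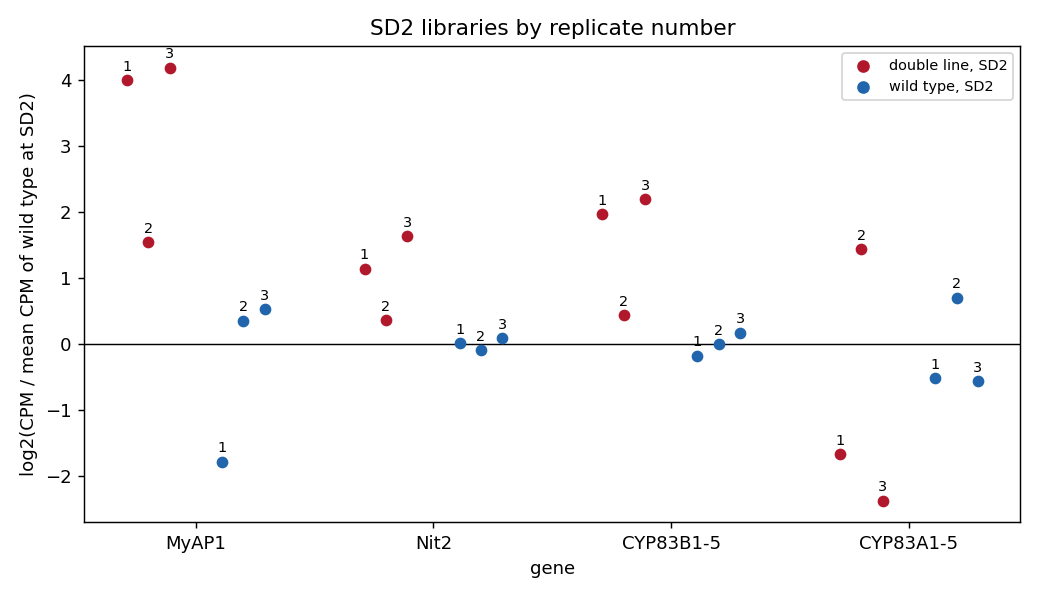
Log2 ratio of the CPM of each SD2 library to the mean CPM of the 3 wild-type SD2 libraries, for 4 genes, with the double line left of wild type and the replicate number above each point; CYP79F1 is left out because of values of 0. For MyAP1, Nit2 and CYP83B1-5 replicate 2 of the double line (1.54, 0.36 and 0.44) lies between replicates 1 and 3 and the wild-type mean; for CYP83A1-5 it lies above wild type (1.44), and replicates 1 and 3 below (-1.67 and -2.38).

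CYP79F1, named after the enzyme that starts synthesis from chain-elongated methionine in Arabidopsis, was found in 14 of the 27 libraries and was at 0 in 13. In the double line, it had 0, 0.52 and 1.96 CPM in LD, 0.07, 0.52 and 0.12 CPM at SD1, and 0, 15.9 and 0 CPM at SD2. In the single line, it had 0.16, 0.04 and 2.72 CPM in LD and 0 in all 6 libraries at SD1 and SD2. In wild type, it had 16.1, 1.2 and 6.07 CPM in LD, 0, 1.92 and 0 CPM at SD1, and 0, 1.49 and 0 CPM at SD2. The 3 highest libraries held 78.9% of all its counts, and 908 counts came from replicate 2 of the double line at SD2 and 889 from replicate 1 of wild type in LD.

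No comparison called CYP79F1 in edgeR, where the lowest adjusted p was 0.112 and 2 of 24 tests had an unadjusted p under 0.05. DESeq2 called it in 10, each of which takes in the single line at SD1 or SD2, with no count in any library. A count of 3 per library stood for 0.0577 CPM at SD1 and 0.0574 CPM at SD2 in that line. Against these floors, the single line's SD1 and SD2 levels were at least 16.9-fold and at least 17-fold lower than its LD mean of 0.975 CPM, which came mostly from replicate 3. Without that replicate the mean was 0.103 CPM and the bounds were 1.78-fold and 1.79-fold.

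Outside these 5 genes, the table named few genes of the system, and 3 of them were tested. ESP, an epithiospecifier protein gene, was on the list of pathway genes drawn up for the comparison. ESM, an epithiospecifier modifier gene, and Myr2.Bn1, a myrosinase gene, were added by name once the table was read. None of the 3 was called in any of the 24 comparisons by edgeR, so of the 8 genes of the system 2 were called at SD2 between the double line and wild type, both higher and both members of the 5, against the 6.8% of all genes called there and 3.49% called higher. ESP had 811, 1199.5 and 296 CPM in the double line at SD2 and 276, 509 and 281 CPM in wild type at SD2, an overlap (edgeR adjusted p = 0.475). Its lowest edgeR adjusted p was 0.0615, for the single line at SD2 against LD, with means of 374 ± 168 and 55.2 ± 54.2 CPM (SD, n = 3 libraries each). Myr2.Bn1 had 245, 622 and 259 CPM in the double line at SD2 and 243, 377 and 363 CPM in wild type at SD2 (edgeR adjusted p = 0.839). ESM did not exceed 0.449 CPM in any library.

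In the gene order of the Da-Ae assembly MyAP1 and ESP lie on the same chromosome with 1 tested gene between them. Around each of the 5 genes, 10 tested neighbours were looked up. At most 1 of the 10 was called between the double line and wild type at SD2, against 6.8% of all genes. The 10 neighbours of MyAP1 had log2 fold changes from -2.60 to 6.58 there, with a median of -0.30. The median log2 fold change over 41 tested genes centred on each gene was -0.06 to 0.19 in that comparison. For the single line against wild type in LD it was -0.17 to 0.03.

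Levels of different genes are compared in FPKM, which are per length of transcript. In the double line at SD2, MyAP1 had 1659.6, 261 and 1898.1 FPKM and ranked 9, 323 and 12 among all genes of the library. In wild type at SD2, it had 28.8, 119 and 129 FPKM and ranked 2977, 621 and 541. The order by median FPKM in the double line at SD2 was MyAP1 (1659.6), CYP83B1-5 (74.9), Nit2 (74.4), CYP83A1-5 (28.3) and CYP79F1 (0). Of these, MyAP1 lay above the other 4 genes in every library. CYP83B1-5 and Nit2, with means of 62.1 ± 34.9 and 72.3 ± 33.8 FPKM (SD, n = 3 libraries each), did not differ beyond their spread, and CYP83A1-5, from 17.4 to 212 FPKM, overlapped with both.

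None of the other groups had this order by median FPKM. In wild type at SD2 it was MyAP1 (119), CYP83A1-5 (60.6), Nit2 (30.7), CYP83B1-5 (17.1) and CYP79F1 (0). CYP83A1-5, Nit2 and CYP83B1-5 did not overlap there, at 52.5 to 133, 28.4 to 32.7 and 16.3 to 18.6 FPKM, whereas MyAP1, at 28.8 to 129, overlapped with CYP83A1-5 and Nit2. In the single line at SD2 Nit2 led (42.5), ahead of CYP83A1-5 (30.8), MyAP1 (21.3) and CYP83B1-5 (18.5), and MyAP1, at 11.7 to 163 FPKM, overlapped with all 3. In LD the leading gene was Nit2 in the double line (41.9) and the single line (39.4), and CYP83A1-5 in wild type (84.4). In each genotype the leading gene in LD overlapped with others of the 5, Nit2 with MyAP1 and CYP83A1-5 in the double line and with CYP83A1-5 in the single line, and CYP83A1-5 with MyAP1 and Nit2 in wild type. CYP79F1 was last in all 9 groups.

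**Figure D4:**
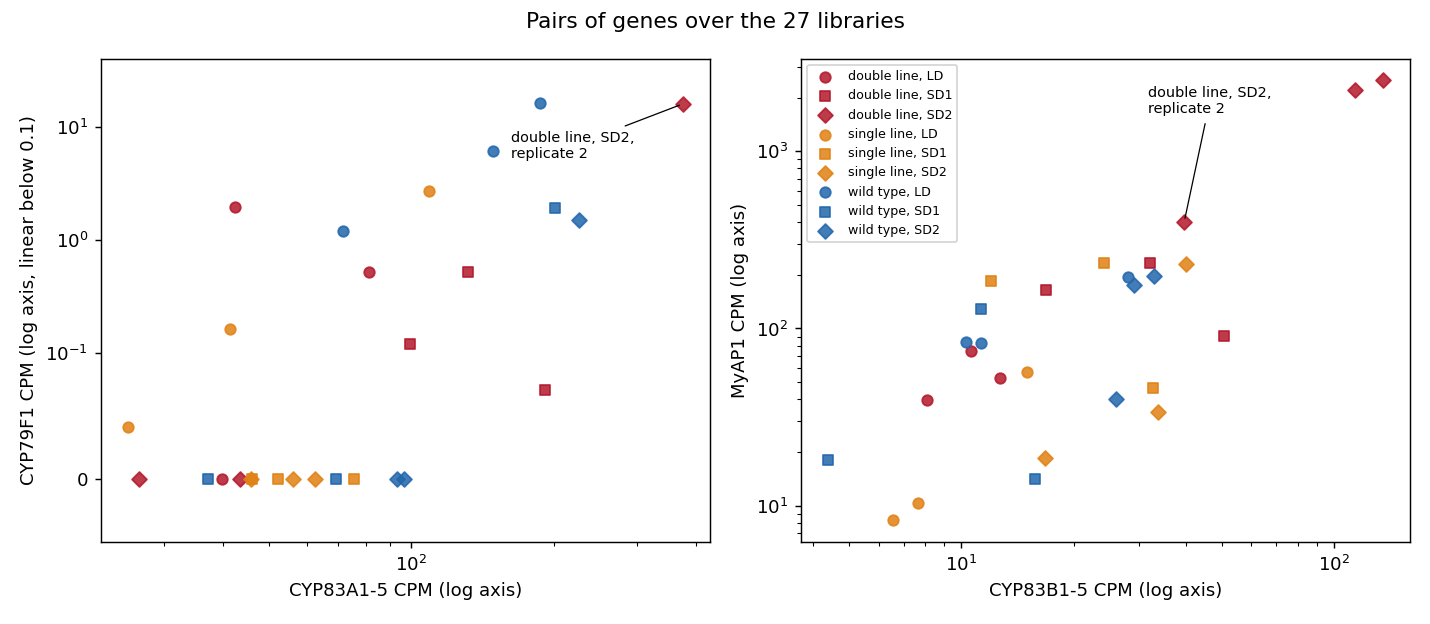
CPM of CYP79F1 against CYP83A1-5 (left) and of MyAP1 against CYP83B1-5 (right) in the 27 libraries; colour gives the genotype and shape the stage, and axes are log scales, linear below 0.1 for CYP79F1. Replicate 2 of the double line at SD2 is at the top right on the left (375 and 15.9 CPM) and below its group on the right (39.6 and 400 CPM).

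Across the 27 libraries, 2 pairs of the 5 genes stood out by Pearson's r of log2 CPM, given as a description since libraries share groups. For MyAP1 and CYP83B1-5, r was 0.76 (Spearman's rho 0.65), 0.58 without the 2 libraries farthest from the MyAP1 median, and 0.43 for deviations from group means. CYP79F1 and CYP83A1-5 had an r of 0.68 (rho 0.60), 0.55 without the 2 libraries farthest from the CYP79F1 median, and 0.86 for deviations from group means. Without replicate 2 of the double line at SD2, r was 0.75 for the first pair and 0.61 for the second. The deviations were not correlated without that library, and CYP79F1 was at 0 in 13 of the 27 libraries. The highest library of CYP79F1 and CYP83A1-5 was the same one in 5 of the 7 groups with CYP79F1 counts, among them replicate 2 in all of wild type at SD1, wild type at SD2 and the double line at SD2. By contrast Nit2 and CYP83A1-5, at r = -0.39, shared their highest library in 0 of 9 groups.

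The 405 named genes tested outside these 5 were also ranked by Pearson's r of log2 CPM with each of the 5 over the 27 libraries. Nearest to MyAP1 were Ann1, an annexin gene (r = 0.737), AOC3.1, an allene oxide cyclase gene of jasmonate synthesis (0.672), and BiP, an endoplasmic reticulum chaperone gene (0.672). Without the 2 libraries farthest from the median of the named gene itself, these r were 0.534, 0.31 and 0.287. The likeness of AOC3.1 and of BiP thus each rested largely on 2 libraries. Ann1 was also nearest to CYP83B1-5 (0.817, and 0.69 without the 2 libraries farthest from the Ann1 median). Nit2 was nearest to LRP (0.664), CYP83A1-5 to agps1, a gene for a subunit of ADP-glucose pyrophosphorylase (0.582), and CYP79F1 to Chs, a chalcone synthase gene (0.777; rho 0.833).

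In the remaining comparisons none of the 5 genes was called by edgeR, as counted above. Against wild type, 0 of 5 were called in the double line in LD (0.652% of all genes) and at SD1 (0.565%), and in the single line in LD (2.98%) and at SD1 (3.07%). Between the lines, 0 of 5 were called in LD (2.13%) and at SD1 (2.15%). Within genotypes, 0 of 5 were called between SD2 and SD1 in the double line (2.21%), the single line (0.00416%) and wild type (0.00278%), and between SD1 and LD in the single line (0.268%) and wild type (0.112%). The tests of differences between stage changes not given above called 0 of 5, against 0.0208% of all genes for SD2 and 0.00139% for SD1 between the lines, 0.00278% for SD1 between the single line and wild type, and 0% for the rest.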

How the data were processed

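TRIzol-extracted leaf RNA went into TruSeq v2 libraries for Illumina HiSeq sequencing, per the labels' protocols. Trim Galore and HISAT2 are named in the submitters' processing notes; no version, build, strand setting or counter is named in the labels, so reads of near-identical gene copies may have been split or shared. The authors deposited raw counts per gene and, separately, FPKM values of unstated method. From the counts, 1 entry naming no gene was left out (at most 2.61e-05% of counts). Counts were filtered by group, scaled by TMM (factors 0.862 to 1.14) and fitted once with edgeR 4.0.16 in R 4.3.3 (robust quasi-likelihood, 72039 genes, 27 libraries, 18 residual degrees of freedom, 24 contrasts). The SE of a log2 fold change is its size divided by the square root of F. CPM use TMM-scaled totals with no prior count. Log2 CPM, used for the principal components and correlations, have a prior count of 2. Groups came from genotype, stage and replicate labels. The FPKM were tested with limma 3.58.1 on log2(FPKM + 0.1) as an alternative; others were DESeq2 1.42.0, a pseudocount of 1, no filter, other scaling, other sets of libraries, a replicate block and leaving out each replicate.

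The 5 genes and the pathway and marker lists were chosen with earlier results of these data known. The genes named are these 5 in all comparisons and the list's other tested genes (at most 4). Added to these are the named genes outside the 5 most alike over 27 libraries (3 for MyAP1, 1 for each other gene). Copies of the genes were not looked up, since protein sequences were not used here. ESM and Myr2.Bn1 were chosen after the table was read.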

Additional observations from a re-analysis of the deposited data

How the results depend on the processing

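Over 15 or fewer alternatives each, the 5 calls kept their direction, and none held under all. With a fit on the libraries of the compared groups alone, all 5 calls were lost at nearly the same log2 fold changes: MyAP1 3.66 and Nit2 1.16 for the double line over wild type at SD2, MyAP1 4.16 against the single line, and MyAP1 4.92 and CYP83B1-5 3.19 for SD2 against LD in the double line (edgeR adjusted p = 0.0675 to 0.142). The number of the 5 genes called was then 0 in all 3 comparisons, and was 1 for the single line at SD2 against LD (CYP83B1-5) and for wild type at SD2 against LD (Nit2). MyAP1 against wild type also lost its call with no filter (3.67, edgeR adjusted p = 0.0675), and Nit2 without the 9 single-line libraries (1.14, edgeR adjusted p = 0.0819), which left 1 called in each case.

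Same-numbered replicates did not deviate together: the correlation of a pair's deviations ran from -0.178 to 0.191, and in 0 of 18 comparisons did every pair exceed 0.1. With a replicate block MyAP1 against wild type at SD2 had a log2 fold change of 3.57 (edgeR adjusted p = 0.0543), the number called there was 1, and the number called for the single line at SD2 against LD was 1. CYP83A1-5 at SD2 against wild type, 0.10 with no block, was -0.16 with the replicate block and -0.67, -0.65 and -0.67 by limma on FPKM with a pseudocount of 0.1, with 1, and with no filter, none of them called.

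Leaving out each library in turn gave log2 fold changes of 3.19 to 4.10 for MyAP1 and 0.83 to 1.41 for Nit2 (double line over wild type at SD2), 3.68 to 6.03 for MyAP1 (against the single line), and for CYP83A1-5 -1.99 to 0.64 against wild type, -0.65 to 1.94 against the single line, -0.64 to 1.95 against LD and -0.67 to 1.96 for the difference of changes from wild type. The number called ranged from 0 to 4 against wild type, from 0 to 3 against the single line, from 0 to 4 for SD2 against SD1 in the double line, from 0 to 1 for SD2 against LD in the single line, and from 0 to 3 for the difference of the double line's LD-to-SD2 change from that of wild type. In that last test 1 was called without replicate 3 of the double line in LD (Nit2) or replicate 1 of wild type in LD (CYP83B1-5). The negative ends came without replicate 2 of the double line at SD2. CYP79F1 had fitted values of -7.76 to 11.18 against wild type and -8.50 to 4.33 against LD. Fitted values of groups at 0 depend on the small prior count of the edgeR fit, kept at its default, not on that of log2 CPM.

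DESeq2 called 3 of the 5 genes at SD2 against the single line and in the difference of changes from wild type, 2 for SD2 against SD1 in the double line and for SD2 against LD in the single line, and 1 for SD1 against LD in the double line. It called 1, CYP79F1, in 8 comparisons with groups at 0. By limma on log2(FPKM + 1), 2 were called at SD2 against the single line, and 1 each for the difference of changes from wild type and for the single line at SD2 against LD; a pseudocount of 0.1 gave 1 for each of these last 2. The cause of these differences between settings was not tested. Of 776 values of single genes under alternatives, 713 kept direction and call, and 340 of 383 counts stayed within 1.5 times. These totals take in results that were not called and stayed so. Against wild type at SD2, the MyAP1 call held under 7 of 15 alternatives and the Nit2 call under 8 of 15. MyAP1 against the single line held under 9 of 14, and MyAP1 and CYP83B1-5 against LD under 14 of 15 each. Depth limits CYP79F1 alone among the 5 genes.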
